A study of Mus musculus with 12 samples.

Results

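The glycolysis genes and glucose transporters described here are 10 genes chosen by name, *Slc2a1*, *Slc2a3*, *Hk2*, *Pfkl*, *Pfkp*, *Aldoa*, *Pgk1*, *Eno1*, *Ldha* and *Pdk1*, of 46517 genes listed in the count files. All 10 passed the filter on low values, as did 15673 genes in all. Their RNA was followed in 12 samples of mouse embryonic stem cells (ESCs), in 4 groups of 3 replicates. WT and *Meteor* KO ESCs were compared in the undifferentiated state (day 0) and after 3 days in embryoid bodies (day 3), the cell aggregates in which ESCs start to form the germ layers. *Meteor* is an enhancer upstream of *Eomes*, a regulator of mesendoderm, the common precursor of mesoderm and endoderm. In the KO line the enhancer was deleted with the start of its lncRNA by CRISPR-Cas9 nickase. Both genotypes are of the C57BL/6 background and carry the EomesEGFP reporter. The KO cells were grown from picked clones and the labels name 1 KO line, so an effect of the deletion and a property of a clone cannot be told apart. At day 0 the cells grew on mouse embryonic fibroblast feeders in high-glucose medium with leukemia inhibitory factor, and at day 3 they hung in drops of another medium without it, so the days differ in culture as well as in cell state. The comparison asks whether the genes that carry glucose to pyruvate and lactate differ when the enhancer is missing, before and during differentiation.

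Glycolysis splits glucose into pyruvate in the cytosol. Glucose enters through transporters of the Slc2a family, is trapped by hexokinase, committed at the phosphofructokinase step, and passed through aldolase, phosphoglycerate kinase and enolase to pyruvate. Lactate dehydrogenase turns pyruvate into lactate, and the pyruvate dehydrogenase kinases hold back its entry into mitochondria. Pluripotent stem cells are known for a high rate of glycolysis, and many genes of the pathway are textbook targets of the hypoxia-inducible factors (HIF) and of Myc.

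The count of reads on genes ranged from 17455927 to 23910943 per sample. Values are CPM (read counts scaled to library size with TMM factors) unless said otherwise, and 3 values of a group are those of replicates 1, 2 and 3 in that order. The 2 annotated genes at the deleted locus, *Platr11* and *2610509F24Rik*, had 30 to 112 and 52 to 107 reads in WT samples at day 0, 11 to 53 and 29 to 92 in WT at day 3, and no more than 1 read in any KO sample. The summed level of 8 pluripotency markers was 3082 to 4673 CPM at day 0 and 629 to 1199 CPM at day 3, so the labels of the days matched their markers. The sum of 8 mesendoderm markers rose to between 932 and 1817 CPM in WT at day 3 but was 76.7 to 152 CPM in KO, and 8 of 8 of them were lower in KO at day 3. In bulk RNA, fewer cells of a type and less RNA per cell cannot be told apart, and this holds for each difference below. The labels do not say whether replicates came from separate cultures, so p-values measure only the spread between these samples.

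Per kilobase of the union of annotated exons, which scales levels roughly for gene length, *Ldha* and *Aldoa* were the most abundant of the 10 in WT ESCs, with 520 ± 108 and 468 ± 184 CPM per kb (mean ± SD, n = 3), which did not differ beyond their spread. The transporters followed with 209 ± 80.9 for *Slc2a1* and 186 ± 84.6 for *Slc2a3*, again within their spread, and then *Eno1* with 139 ± 30.7. *Hk2* reached 66.9 ± 3.61, *Pfkl* 49.3 ± 17.3, *Pgk1* 31.4 ± 15.9, *Pdk1* 27.9 ± 3.93 and *Pfkp* 25.0 ± 11.5 CPM per kb, and the last 3 of these were within their spread. The union of exons can be much longer than a transcript. It has 6675 bases in *Pfkl*, 5379 in *Eno1* and 5969 in *Hk2*, where the longest coding transcripts have 3730, 2027 and 5513. The order of the genes therefore depends on the length used. The levels of *Pgk1* and *Eno1* are too low by an unknown amount, because reads that align to several places were not counted. Of the 100-base words in the longest coding transcript, 67.0% in *Pgk1* and 59.0% in *Eno1* also occur in transcripts of other genes, such as the copies *Pgk1-rs7* and *Eno1b*. In *Ldha* this share was 1.28%, and in the other 7 members it was below 0.2%.

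Most of these genes varied more between the replicates of a group than between the means of the groups, other than *Pdk1* and *Pfkp*, whose means ran from 217 to 371 CPM and from 71.7 to 335 CPM over the 4 groups. At day 0, replicate 1 was the highest of the 3 in WT and again in KO for 10 of 10 members, an order shared by 25.3% of all tested genes. At day 3 the order turned over. Replicate 1 was now the lowest in both genotypes for 8 of 10 members, all but *Eno1* and *Ldha*, where 24.1% of all tested genes had that order. Replicate 2 was the highest in both for 10 of 10, where 16.9% had that order. Within a group the highest replicate exceeded the lowest by a median of 2.02-fold in WT and 1.83-fold in KO at day 0, and by 2.01-fold and 2.05-fold at day 3. Over 9491 genes with a mean of at least 10 CPM, these medians were 1.23, 1.22, 1.23 and 1.18. The median spread of the 10 members was therefore near or above the 95th percentile of all such genes, which was 1.95, 1.93, 2.02 and 1.68. This did not hold for each member. At day 0 they ran from 1.10 for *Hk2* to 2.58 for *Pgk1* in WT, and from 1.15 to 2.64 for the same genes in KO. At day 3 they ran from 1.35 for *Eno1* to 3.82 for *Slc2a3* in WT, and from 1.28 for *Eno1* to 6.28 for *Pfkp* in KO.

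*Slc2a3*, the high-affinity glucose transporter of early embryo and neurons (chr6:122727809-122801640 on GRCm38, minus strand), shows the pattern without a genotype difference. WT ESCs had 2044, 898 and 1093 CPM and KO ESCs 1776, 1042 and 969 CPM. At day 3 the WT values were 543, 2077 and 1750 CPM and the KO values 659, 1976 and 1415 CPM. Replicate 1 went from the highest to the lowest of its group in both genotypes, while WT and KO overlapped at both days. *Pfkl*, the liver-type phosphofructokinase (chr10:77986947-78010083, minus strand), ranged from 224 to 453 CPM in WT and from 210.3 to 462 CPM in KO at day 0, and from 207 to 430 CPM and 169 to 383 CPM at day 3. The plot of levels by sample shows the same turn in nearly every member.

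**Figure D1:**
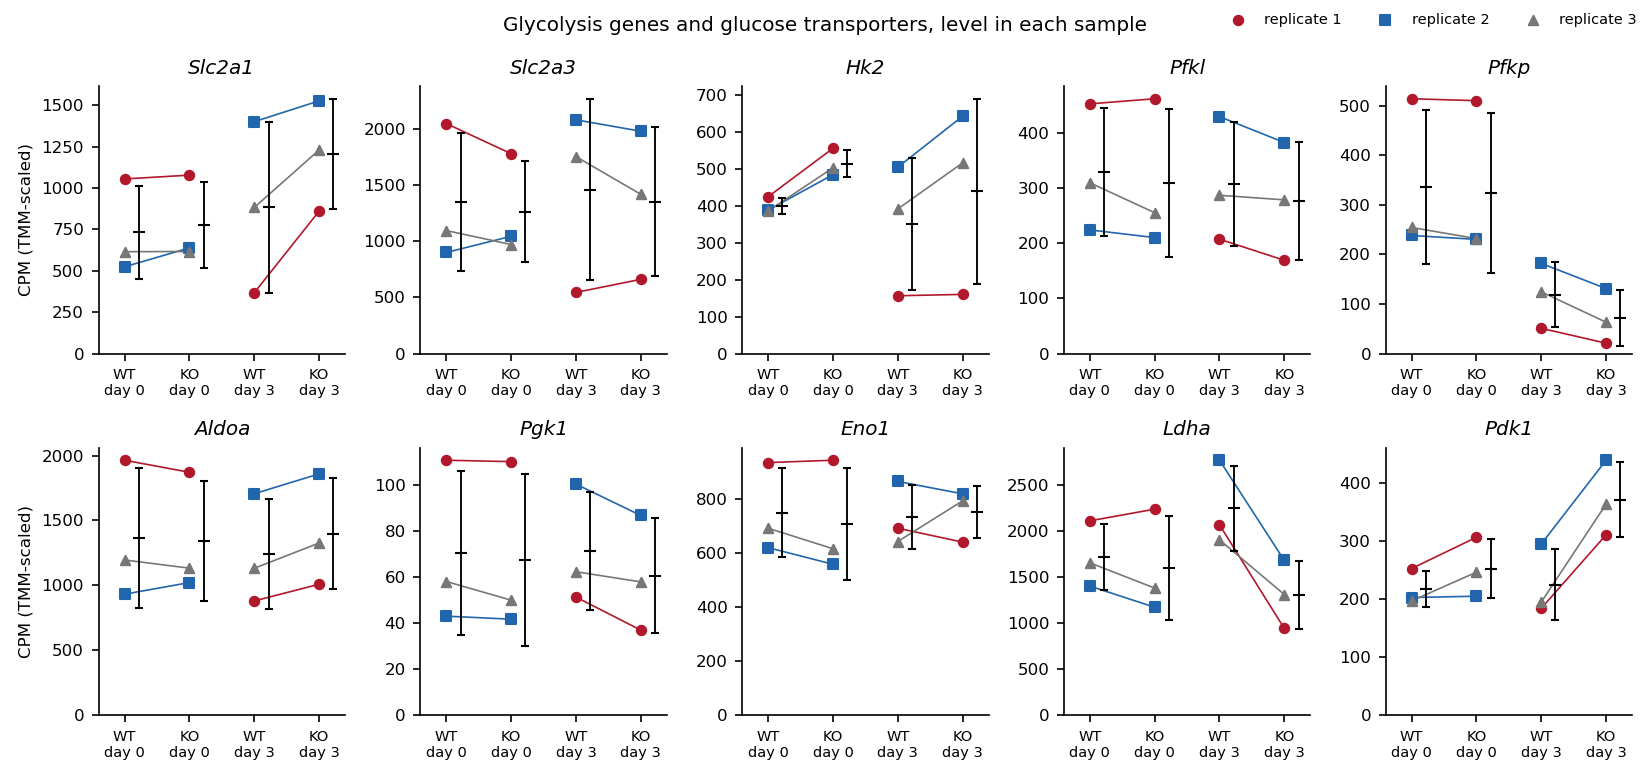
Level of each of the 10 genes in each of the 12 samples, in CPM scaled by TMM (vertical axes start at 0 and differ between panels). Coloured symbols are replicates 1, 2 and 3, lines join same-numbered WT and KO samples, and black bars are mean ± SD of 3. Replicate 1 is the highest at day 0 in every panel, replicate 2 the highest at day 3, and only *Ldha* and *Pdk1* at day 3 and *Hk2* at day 0 separate WT from KO.

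The mean standardised log level of the 10 genes, a score of how high the group as a whole stood in a sample, was 0.95 and 1.07 in replicate 1 of WT and KO at day 0 and -1.04 and -1.1 in replicate 1 at day 3. Replicate 2 stood at -0.64 and -0.63 at day 0 and at 0.96 and 0.89 at day 3. Of 9309 other protein-coding genes with a mean of at least 10 CPM, the 5 with the profile most like this score over the 12 samples were *Prkx* (Pearson's r = 0.96), *Gpi1* (0.944), *Pi4ka* (0.921), *Ndufa4l2* (0.918) and *Agap1* (0.907). *Gpi1* encodes glucose-6-phosphate isomerase, the glycolytic enzyme between *Hk2* and the phosphofructokinases. *Ndufa4l2*, a mitochondrial protein known as a HIF target, had 30.3, 1.98 and 3.91 CPM in WT and 44.7, 8.76 and 6.58 CPM in KO at day 0, then 2.28, 24.5 and 5.76 CPM in WT and 0.3, 18.6 and 5.32 CPM in KO at day 3. These points share their libraries, and each day and number is 1 pair of samples, so the correlations are descriptions. *Gapdh*, often used as a reference gene, had a correlation of 0.101 with the score. However, 18.2% of the 100-base words in its longest coding transcript occur in 1 or more of 74 other genes, and reads of multiple alignment were not counted. It kept 14001 reads over the 12 samples, against 406626 for *Ldha*. The correlation therefore does not show whether *Gapdh* RNA followed the members. Between the 10 members themselves, 45 pairwise correlations ran from -0.16 to 0.97, with a median of 0.66.

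Known HIF targets that carry out no step of glycolysis followed the same order of replicates. They included *Pfkfb3* and *Pfkfb4*, which are also counted below among the side regulators of glycolysis. Of 21 such genes, 16 had replicate 1 as the highest in both genotypes at day 0, 20 had it as the lowest in both at day 3, and 14 had replicate 2 as the highest in both at day 3. *Egln3*, an oxygen-sensing prolyl hydroxylase, had 57.4, 15.95 and 25.3 CPM in WT ESCs and 22.7, 262 and 148 CPM in WT embryoid bodies. *Bnip3*, a mitophagy receptor, had 168, 31.9 and 37.9 CPM in WT ESCs and 54.2, 227 and 101 CPM at day 3, with similar values in KO. For *Bnip3*, 33.5% of the words occur in other genes. Of 16 other glycolysis genes tested, 12 had replicate 1 as the highest at day 0, 12 as the lowest at day 3, and 8 had replicate 2 as the highest at day 3. Of 16 genes of the TCA cycle, the mitochondrial pathway that oxidises acetyl-CoA, 8, 1 and 3 had these orders, and of 7 pentose phosphate genes 1, 1 and 1.

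**Figure D2:**
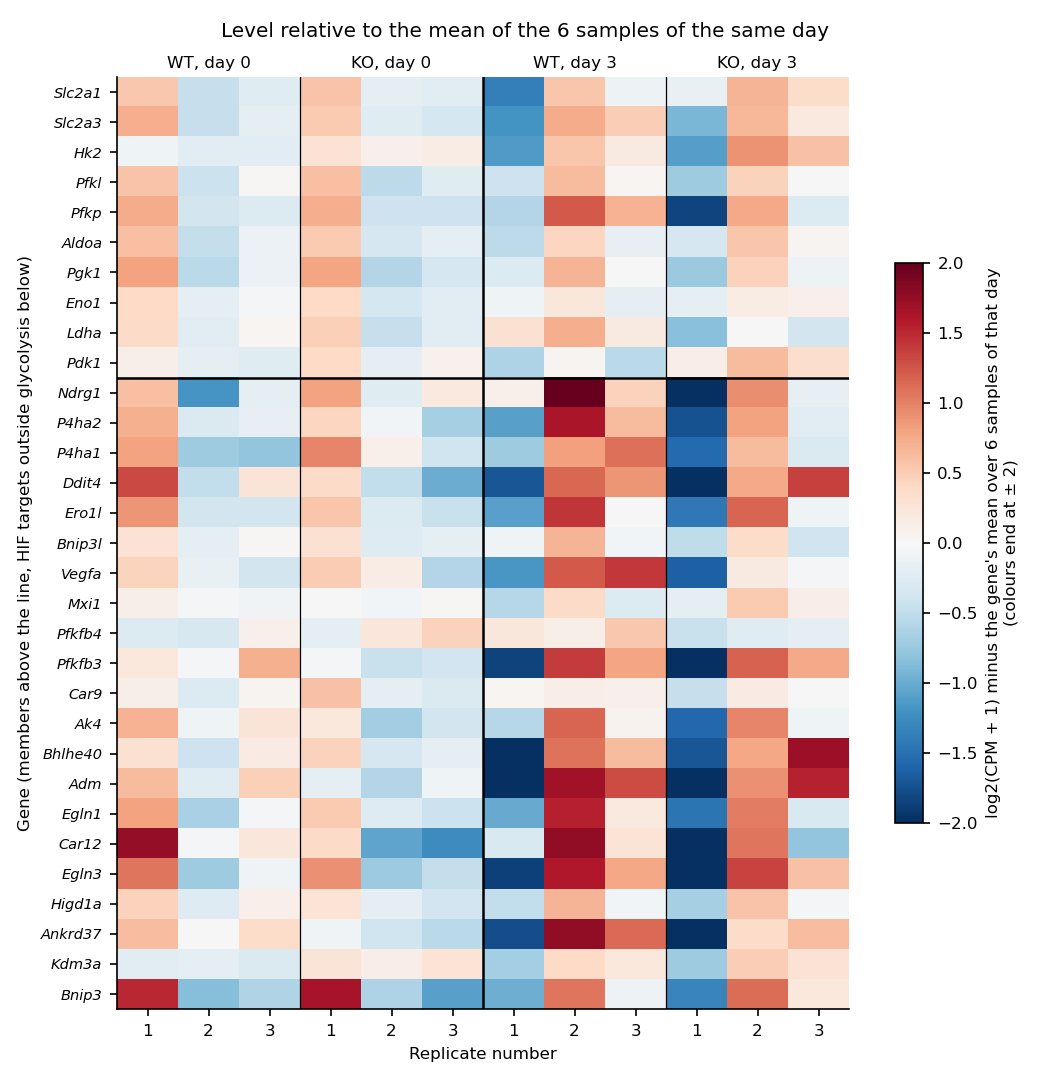
Level of the 10 members (above the line) and of 21 HIF targets outside glycolysis (below) in each sample, as log2(CPM + 1) minus the mean of the gene over the 6 samples of that day. The 21 include *Pfkfb3* and *Pfkfb4*, which are also listed as side regulators of glycolysis. Columns are replicates 1, 2 and 3 of each group, red is above and blue below the day mean, and colours end at a difference of 2 in size. At day 0 replicate 1 is mostly red, at day 3 replicate 1 is mostly blue and replicate 2 mostly red, in WT as in KO.

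The order of the replicates went along with the level of feeder markers at day 0. The summed level of 12 fibroblast genes was 106, 312 and 164 CPM in WT and 160, 438 and 262 CPM in KO, so that replicate 1 held the least feeder RNA and the most RNA of the 10 members. At day 3 the sums were 62.5, 72.7 and 130.2 CPM in WT and 49.4, 94.5 and 98.7 CPM in KO, with replicate 1 again the lowest. There replicate 1 was also the lowest in both genotypes for 8 of 10 members, so the relation seen at day 0 did not hold at day 3. No feeder marker was at 0 in all 12 samples. The labels name no day, batch or density of culture for a replicate, and the part of feeder cells in the pattern was not tested.

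One form of the core that HIF binds in DNA is ACGTG, and promoters were read for these letters to show where members that moved together carry them. The window was 250 bases before each RefSeq start (GRCm38.p6). RefSeq windows were at hand for 9 of the 10 members, and 5 of these had ACGTG on either strand in at least 1 window, namely *Slc2a1*, *Hk2*, *Aldoa*, *Pgk1* and *Ldha*. Counted by window, 6 of 15 member windows had it, of which 2 are overlapping windows of *Aldoa* with the same stretch, beside 16.6% of all 32851 windows. *Ldha* had 3 separate stretches, starting 145, 48 and 34 bases before the start site, and 0.26% of all windows had 3 or more. Of these stretches, 2 read CACGTG, the palindrome known as the E-box of Myc and related factors, which holds ACGTG on both strands and occurs in 6.02% of windows. The first RefSeq windows of the 4 members with the largest KO differences at day 3 are printed with the letters ACGTG or their reverse complement CACGT in capitals.
*Ldha* (chr7:46845554-46845803, plus strand): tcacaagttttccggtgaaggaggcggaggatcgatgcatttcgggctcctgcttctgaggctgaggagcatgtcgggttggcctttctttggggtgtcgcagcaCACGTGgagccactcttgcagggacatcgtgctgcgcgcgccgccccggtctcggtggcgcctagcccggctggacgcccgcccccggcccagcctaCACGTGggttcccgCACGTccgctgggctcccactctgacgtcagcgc
*Slc2a1* (chr4:119108495-119108744, plus strand): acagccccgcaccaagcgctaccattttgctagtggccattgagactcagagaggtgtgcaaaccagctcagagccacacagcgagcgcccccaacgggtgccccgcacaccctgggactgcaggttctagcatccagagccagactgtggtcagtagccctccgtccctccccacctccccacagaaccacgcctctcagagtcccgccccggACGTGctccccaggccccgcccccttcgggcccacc
*Pfkp* (chr13:6648772-6649021, minus strand): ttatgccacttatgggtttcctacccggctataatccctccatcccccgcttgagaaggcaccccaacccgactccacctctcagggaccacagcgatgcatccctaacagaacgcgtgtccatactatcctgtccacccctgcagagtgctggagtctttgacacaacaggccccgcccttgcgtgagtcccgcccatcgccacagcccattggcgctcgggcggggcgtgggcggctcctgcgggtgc
*Pdk1* (chr2:71872974-71873223, plus strand): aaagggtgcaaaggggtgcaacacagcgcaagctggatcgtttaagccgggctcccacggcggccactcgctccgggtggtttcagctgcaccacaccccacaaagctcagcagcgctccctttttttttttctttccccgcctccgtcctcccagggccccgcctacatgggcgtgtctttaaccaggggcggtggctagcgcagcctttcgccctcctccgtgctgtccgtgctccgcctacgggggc
The windows of *Pfkp* and *Pdk1* had no match, which says only that these letters are not in these bases. A match is a run of letters and not a measured binding site.

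Because same-numbered WT and KO samples of a day moved together, KO and WT were compared in 2 ways. The first fit took the replicate number as a block over both days, and the second gave each day its own block, so that each KO sample was set against the WT sample of its number and day. The second was an alternative to the first, and its values are printed where they change a call. A member was called at an adjusted p below 0.05 over all 15673 genes (quasi-likelihood test of edgeR, p-values adjusted after Benjamini and Hochberg, n = 3 per group).

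At day 3, *Meteor* KO embryoid bodies had more *Pdk1* and less *Ldha* than WT, and no value of one genotype overlapped the other for these 2 of 10 members. Values did not overlap in 43.8% of all tested genes, so this was no more common among the members. With the block over both days 1 of 10 members was called higher, *Pdk1*, and 0 lower, where 14.3% and 16.7% of all tested genes were called. With the block within the day 4 were called higher, *Slc2a1*, *Hk2*, *Aldoa* and *Pdk1*, and 3 lower, *Pfkp*, *Pgk1* and *Ldha*, where the background was 22.5% and 24.4%. The direction of KO against WT was the same in all 3 pairs for 8 of 10 members, all but *Slc2a3* and *Eno1*, which was also so for 70% of all tested genes. The median log2 fold change of the members was -0.03 with the first fit and 0.0 with the second, so they did not move as a group in 1 direction.

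*Ldha*, the lactate dehydrogenase subunit that favours lactate formation (chr7:46841475-46855627, plus strand), had 2065, 2766 and 1902 CPM in WT and 940, 1678 and 1308 CPM in KO at day 3. Each KO sample was below each WT sample. The log2 fold change was -0.77 ± 0.28 (SE) with an adjusted p of 0.0584 in the first fit, which misses the threshold, and -0.80 ± 0.11 with an adjusted p of 0.000435 with the block within the day. Over 9 alternative settings the adjusted p ran from 0.000435 to 0.0663, and 6 of them called it. Without 1 sample at a time and with the block within the day, the value stayed between -0.90 and -0.63, called in 12 of 12. With the block over both days 3 of 12 called it.

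*Pdk1*, the kinase that switches off pyruvate dehydrogenase (chr2:71873224-71903858, plus strand), had 184, 294 and 194 CPM in WT and 310.2, 439 and 363 CPM in KO at day 3. All 3 KO values were above all 3 WT values. The log2 fold change was 0.73 ± 0.21 with an adjusted p of 0.0232, or 1.66-fold, and 9 of 9 alternative settings called it with adjusted p from 0.000112 to 0.0284. Leaving out 1 sample at a time ended the call of the first fit in 4 of 12 cases, those without replicate 1 or 3 of WT or replicate 2 or 3 of KO at day 3, where the values were 0.57, 0.70, 0.61 and 0.72. It was called in 12 of 12 with the block within the day, with values from 0.69 to 0.83.

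*Pfkp*, the platelet-type phosphofructokinase (chr13:6579768-6648777, minus strand), was low at day 3 and lower still in KO. WT had 50.8, 182 and 124 CPM and KO 20.9, 131 and 63.2 CPM. The groups overlapped, but each KO sample was below the WT sample of its number, by -1.28, -0.47 and -0.98 on the log2 scale. The log2 fold change was -0.77 ± 0.64 with an adjusted p of 0.386 with the block over both days and -0.89 ± 0.12 with an adjusted p of 0.000423 with the block within the day. Over 9 settings the adjusted p ran from 0.000423 to 0.485.

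*Slc2a1*, the broadly expressed glucose transporter GLUT1 (chr4:119108711-119137983, plus strand), stood at 368, 1401 and 883 CPM in WT embryoid bodies. The KO values were 861, 1527 and 1230 CPM. The difference was carried mainly by replicate 1, where KO exceeded WT by 1.23 on the log2 scale, against 0.12 and 0.48 in the others. The log2 fold change was 0.47 ± 0.45 with an adjusted p of 0.463 in the first fit and 0.61 ± 0.17 with an adjusted p of 0.0142 with the block within the day. In that fit it fell to 0.30 and lost its call when replicate 1 of WT or of KO at day 3 was left out, with adjusted p of 0.0551 and 0.0543.

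For the other 6 members the fitted differences were smaller. *Hk2*, the inducible hexokinase (chr6:82725025-82774454, minus strand), had 156, 504 and 391 CPM in WT and 160, 642 and 516 CPM in KO at day 3. It was called only with the block within the day, at 0.26 ± 0.07 with an adjusted p of 0.0151, and that call was lost in 4 of 12 cases without 1 sample. *Aldoa*, the aldolase of most tissues (chr7:126795234-126800751, minus strand), was 0.18 ± 0.06 higher in the same fit, with an adjusted p of 0.0334, and kept its call in 4 of 12 cases. *Pgk1*, phosphoglycerate kinase (chrX:106187100-106203699, plus strand), was -0.26 ± 0.08 with an adjusted p of 0.0258, and kept it in 8 of 12. In the first fit these 3 had adjusted p of 0.591, 0.734 and 0.742. *Slc2a3* had a log2 fold change of -0.03 ± 0.11, *Pfkl* of -0.17 ± 0.07 and *Eno1*, the main enolase (chr4:150236721-150248879, plus strand), of 0.04 ± 0.08 with the block within the day, with adjusted p of 0.826, 0.0848 and 0.736. The plot of fold changes sets both fits side by side.

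**Figure D3:**
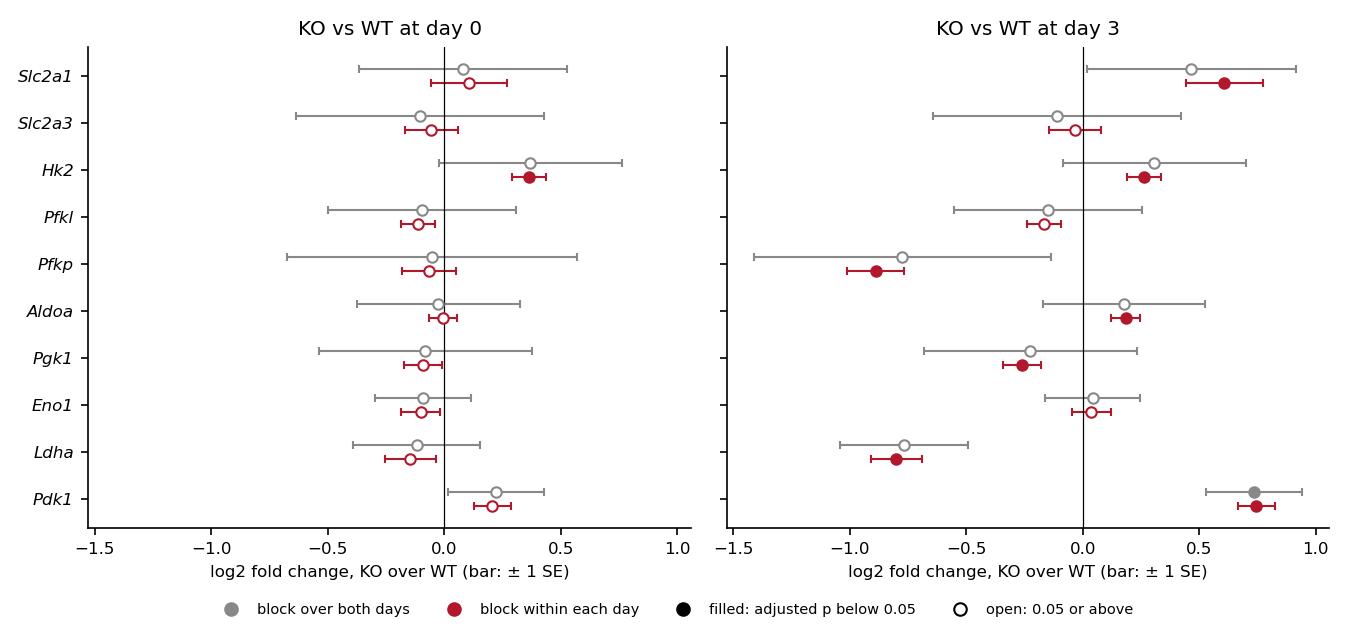
Log2 fold change of KO over WT at day 0 (left) and day 3 (right) for the 10 genes, with bars of ± 1 SE. Grey points are from the fit with the replicate block over both days and red points from the fit with the block within each day, and filled points have an adjusted p below 0.05. The centres of both fits lie close together, the red bars are shorter, and the values furthest from 0 are those of *Pdk1*, *Slc2a1*, *Ldha* and *Pfkp* at day 3.

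At day 0 the fitted differences between KO and WT ESCs were small, and the largest was that of *Hk2*. In the first fit 0 of 10 members were called higher and 0 lower, where 9.56% and 10.9% of all tested genes were called, and in this edgeR fit no member had an unadjusted p below 0.05. DESeq2 and limma-voom called 0 as well. A count of 0 in this fit does not show that the members were equal. With the block within the day 1 was called higher and 0 lower, beside 16.8% and 18% of all tested genes. *Hk2* had 424, 388 and 386 CPM in WT and 555, 484 and 502 CPM in KO, and all KO values were above all WT values. It was the 1 member of 10 without overlap at day 0, beside 34.2% of all tested genes. Its log2 fold change was 0.37 ± 0.39 with an adjusted p of 0.559 in the first fit and 0.36 ± 0.07 with an adjusted p of 0.00442 with the block within the day, where it was called in 12 of 12 cases without 1 sample. *Pdk1* had 252, 202 and 196 CPM in WT and 306, 204 and 246 CPM in KO at day 0. The log2 fold change of 0.21 ± 0.08 had an adjusted p of 0.0712 with the block within the day and was called in 4 of 12 cases without 1 sample. The other 8 members had log2 fold changes from -0.15 for *Ldha* to 0.11 for *Slc2a1* in that fit. The direction was the same in all 3 pairs for 5 of 10 members, and for 62.4% of all tested genes.

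Over the 3 days of differentiation most of the 10 genes stayed within their spread, and *Pfkp* fell in KO. The block over both days is not supported by a pairing of numbers across days, so values with no replicate block are given beside the calls. In WT 0 of 10 members were called higher and 0 lower, beside 30.7% and 25.5% of all tested genes, and the only unadjusted p below 0.05 was that of *Pfkp*. In KO 1 was called higher, *Pdk1*, and 1 lower, *Pfkp*, beside 29.4% and 27.2%. *Pfkp* had 514, 238 and 254 CPM in WT and 510, 230.2 and 232 CPM in KO at day 0, each above every value of day 3. Its log2 fold change from day 0 to day 3 was -1.57 ± 0.66 with an adjusted p of 0.0674 in WT and -2.29 ± 0.69 with an adjusted p of 0.0164 in KO. With no replicate block the values were -1.49 ± 0.60 and -2.18 ± 0.62, with adjusted p of 0.0537 and 0.0103. The call in KO was lost without replicate 1 of KO at day 0 or at day 3, where the values were -1.67 and -1.60. *Pdk1* rose in KO by 0.55 ± 0.21 with an adjusted p of 0.0443, and by 0.56 ± 0.20 with an adjusted p of 0.0334 with no replicate block. That call held in 6 of 12 cases without 1 sample and in 6 of 8 other settings, and without replicate 2 of KO at day 0 the value was 0.32 with an adjusted p of 0.209. In WT its change was 0.04 ± 0.21 with an adjusted p of 0.894. *Ldha* moved by 0.39 ± 0.27 in WT and by -0.26 ± 0.28 in KO, with adjusted p of 0.257 and 0.444. The test of the difference between both contrasts is the same as that of the KO effect between days.

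That test, an interaction term, asks whether the KO effect at day 3 differed from that at day 0. With the block over both days 0 members were called higher and 0 lower, beside 8.21% and 7.34% of all tested genes, with no unadjusted p below 0.05. With the block within each day 1 member was called higher and 2 lower, beside 16.2% and 15%. The difference was 0.54 ± 0.11 for *Pdk1* with an adjusted p of 0.00675, -0.82 ± 0.17 for *Pfkp* with an adjusted p of 0.00605 and -0.65 ± 0.16 for *Ldha* with an adjusted p of 0.0121. These 3 were called in 12 of 12 cases without 1 sample in that fit. *Slc2a1*, at 0.50 ± 0.23 with an adjusted p of 0.131, was called in 2 of 12, without replicate 2 of WT or of KO at day 3, at 0.75.

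Several steps of the pathway can be run by more than 1 gene of a family, and the share of each in its family was followed beside its level. Shares are of CPM per kb and have no test, since an exact test of 3 against 3 cannot go below 0.1. *Ldha* held 90.7% to 92.6% of *Ldha* and *Ldhb* in WT ESCs, 95.9% to 96.6% in KO ESCs, 90.5% to 93.1% in WT embryoid bodies and 73.2% to 82.8% in KO embryoid bodies. The KO range lay above WT at day 0 and below it at day 3. *Ldhb*, the subunit of the heart-type enzyme that favours pyruvate, had 99.2, 68.5 and 63.0 CPM in WT and 37.2, 22.5 and 27.7 CPM in KO at day 0, and 83.8, 98.0 and 95.2 CPM in WT and 163, 166 and 180 CPM in KO at day 3. Its log2 fold change was -1.40 ± 0.18 at day 0 and 0.87 ± 0.17 at day 3, with adjusted p of 0.000895 and 0.00486, and the difference between days was 2.27 ± 0.25 with an adjusted p of 0.00081.

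In the phosphofructokinase family *Pfkp* held 23.9% to 31.8% in WT and 26.6% to 32.2% in KO at day 0, and 6.47% to 12.6% and 2.52% to 8.72% at day 3. *Pfkl* held 52.6% to 58.4% in WT and 53.9% to 58.8% in KO at day 0, then 53.0% to 59.7% and 41.0% to 51.1%, without overlap at day 3. *Pfkm*, the muscle-type enzyme, took 11.8% to 19.6% in WT and 9.17% to 16.8% in KO at day 0, then 27.7% to 40.6% and 40.2% to 56.5%. In both genotypes the share of *Pfkp* was lower and that of *Pfkm* higher at day 3 than at day 0, with ranges that did not overlap between days. *Pfkm* rose by 0.90 ± 0.13 in WT and 1.99 ± 0.13 in KO on the log2 scale, with adjusted p of 0.000236 and 1.66e-06. KO was below WT at day 0 by -0.43 ± 0.13 and above it at day 3 by 0.66 ± 0.12, and the difference of 1.09 ± 0.18 had an adjusted p of 0.00367.

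*Slc2a1* held 51.6% to 54.7% of both transporters in WT and 55.6% to 56.8% in KO at day 0, and 51.0% to 58.3% in WT and 61.5% to 73.0% in KO at day 3. The share of *Pdk1* among the 4 pyruvate dehydrogenase kinases was 54.7% to 57.1% in WT and 58.2% to 66.8% in KO at day 0, and 53.5% to 55.3% and 65.2% to 68.5% at day 3, so KO was above WT at both days. *Hk2* kept 85.3% to 94.2% of *Hk1* and *Hk2*, and *Aldoa* 96.5% to 99.4% of *Aldoa* and *Aldoc*, over all 12 samples. By plain CPM the shares of *Slc2a1*, *Pfkl*, *Pfkp*, *Pfkm*, *Ldha* and *Pdk1* had other levels, but the KO and WT ranges that overlapped per kb, and those that did not, were the same. The direction over the days was not the same for *Pfkl*. By plain CPM its share in KO was 44.4% to 49.2% at day 0 and 55.1% to 58.4% at day 3, a rise where the share per kb fell. In WT it was 44.5% to 50.7% and 58.8% to 61.4%.

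**Figure D4:**
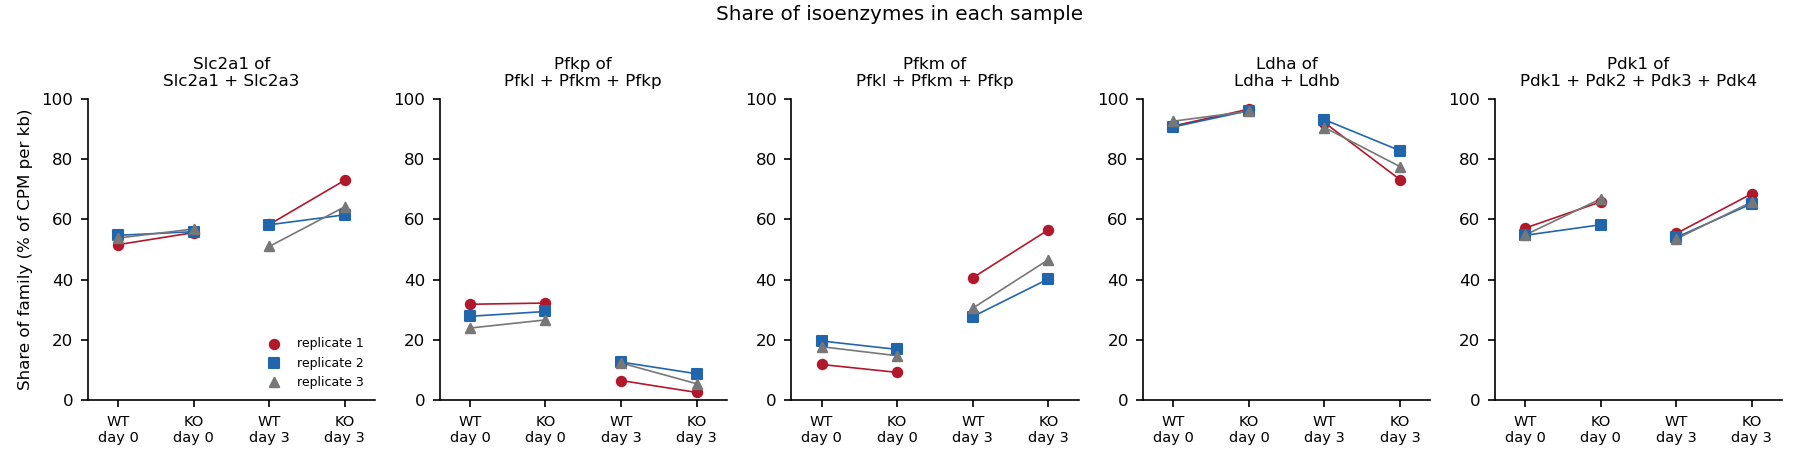
Share of 1 gene in the summed CPM per kb of its family, in percent, in each of the 12 samples (symbols are replicates 1, 2 and 3, lines join same-numbered WT and KO samples of a day). *Pfkp* is lower and *Pfkm* higher at day 3 in both genotypes, *Ldha* lies between 73.2% and 82.8% only in KO at day 3, and *Pdk1* holds 65.2% to 68.5% there.

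Among 16 other glycolysis genes tested of 20 listed, 1 was called higher and 2 lower in KO at day 0 and 3 higher and 0 lower at day 3 in the first fit, beside 9.56% and 10.9% of all tested genes at day 0 and 14.3% and 16.7% at day 3. The median log2 fold change was 0.15 at day 3, where that of the members was -0.03. The 3 called at day 3 were *Ldhb*, *Pfkm* and *Eno3*, the muscle enolase, which was 0.61 ± 0.13 higher with an adjusted p of 0.00642. At day 3, 5 were called higher and 2 lower with the block within the day, beside 22.5% and 24.4%. *Hk1*, the constitutive hexokinase, was 0.46 ± 0.11 and *Gpi1* 0.42 ± 0.06 higher, with adjusted p of 0.00855 and 0.000573, and *Aldoc*, the brain aldolase, was -0.59 ± 0.11 with an adjusted p of 0.00255. *Pkm*, the pyruvate kinase at the last step, had log2 fold changes of -0.06 ± 0.18 at day 0 and 0.17 ± 0.18 at day 3, with adjusted p of 0.866 and 0.511 in the first fit, and *Tpi1*, triosephosphate isomerase, of -0.03 ± 0.34 and 0.07 ± 0.34, with adjusted p of 0.965 and 0.897.

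Of 10 other glucose and monocarboxylate transporters tested of 13, 0 were called higher and 2 lower in KO at day 3 in the first fit, beside 14.3% and 16.7% of all tested genes. These were *Slc2a10*, at -2.06 ± 0.55, and *Slc2a12*, at -1.57 ± 0.39, with adjusted p of 0.018 and 0.0133. Both are rare next to *Slc2a1*, with no more than 1.11 and 2.62 CPM in any sample. *Slc2a4*, the insulin-responsive transporter GLUT4, rose over the days by 1.95 ± 0.29 in WT and 2.79 ± 0.30 in KO, with adjusted p of 0.000384 and 3.51e-05, from at most 2.07 to at most 14.3 CPM. With the block within the day it was also called higher in KO at day 3, at 0.76 ± 0.17 with an adjusted p of 0.00535. At day 0, 0 of these transporters were called higher and 1 lower in KO in the first fit, beside 9.56% and 10.9%. This was *Slc16a7*, at -2.42 ± 0.62 with an adjusted p of 0.0221 and no more than 1.15 CPM in any sample. With the block within the day 0 were higher and 2 lower, beside 16.8% and 18%, with *Slc16a3* at -0.88 ± 0.15 and an adjusted p of 0.00211. Of 8 side regulators, which set the levels of fructose bisphosphates or divert intermediates, 2 were called higher and 0 lower at day 0 and 2 higher and 1 lower at day 3 in the first fit. Of all tested genes 9.56% and 10.9% were called at day 0 and 14.3% and 16.7% at day 3. *Pfkfb4*, which makes the activator of phosphofructokinase, was -0.72 ± 0.20 at day 3 with an adjusted p of 0.0192. *Fbp1* and *Fbp2*, which run the step in reverse, were 1.77 ± 0.54 and 2.52 ± 0.67 higher with adjusted p of 0.0328 and 0.0176, but at levels of no more than 1.42 and 0.511 CPM at day 3.

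The HIF targets outside glycolysis stood lower in KO embryoid bodies when the samples were compared pair by pair. With the block within the day 1 of 21 was called higher and 12 lower at day 3, beside 22.5% and 24.4% of all tested genes, with a median log2 fold change of -0.37. With the block over both days 0 were called higher and 1 lower, beside 14.3% and 16.7%, with a median of -0.32. The 1 lower was *Pfkfb4*, which is also counted above among the side regulators. The 3 largest with the block within the day were *Ndrg1*, a stress-response gene, at -1.82 ± 0.47, *Car12*, a membrane carbonic anhydrase, at -1.21 ± 0.21, and *Vegfa*, the angiogenic growth factor, at -1.05 ± 0.16, with adjusted p of 0.0112, 0.0015 and 0.00071. *Vegfa* had 18.8, 102 and 116.5 CPM in WT and 13.3, 49.0 and 42.4 CPM in KO. At day 0, 1 was called higher and 6 lower with the block within the day, beside 16.8% and 18% of all tested genes, with a median of -0.11. Of the members, *Ldha* and *Pfkp* moved the way of this list at day 3 and *Pdk1* and *Slc2a1* the other way.

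Of 12 factors known to act on glycolysis genes, 1 was called higher and 4 lower in KO at day 0, and 3 higher and 0 lower at day 3, in the first fit, beside 9.56% and 10.9% and 14.3% and 16.7% of all tested genes. At day 3, 4 were higher and 2 lower with the block within the day, beside 22.5% and 24.4%, among them *Myc* at -0.60 ± 0.22 with an adjusted p of 0.0475. *Epas1*, which encodes HIF2A, had 28.4, 63.1 and 69.2 CPM in WT and 61.0, 109 and 159 CPM in KO at day 0, and 4.99, 7.07 and 11.4 CPM in WT and 20.6, 26.4 and 23.5 CPM in KO at day 3. Its log2 fold change was 1.03 ± 0.21 at day 0 and 1.68 ± 0.22 at day 3, with adjusted p of 0.00696 and 0.000602. *Mycn* was -1.70 ± 0.28 and *Mycl* -1.82 ± 0.27 at day 0, with adjusted p of 0.00314 and 0.00166. *Hif1a* had 180 to 237 CPM in WT and 207 to 216 CPM in KO at day 0, and 229 to 330 CPM and 241 to 352 CPM at day 3. At day 3 replicate 1, the lowest in most members, had the highest *Hif1a* RNA of each genotype. Protein levels of these factors were not measured here.

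Markers of other cells differed between KO and WT beside these results. Of all tested genes, 9.56% were called higher and 10.9% lower in KO at day 0 and 14.3% and 16.7% at day 3 in the first fit. With the block within the day these shares were 16.8% and 18% at day 0 and 22.5% and 24.4% at day 3. At day 0 the summed pluripotency markers stood at 3082 to 3616 CPM in WT and 4360 to 4673 CPM in KO, without overlap, with 2 of 8 called higher and 1 lower in the first fit. Of the mesendoderm markers 0 were called higher and 2 lower, *T* at -5.49 ± 1.43 and *Lhx1* at -6.66 ± 1.62, and of the 7 neuroectoderm markers 0 higher and 3 lower, *Otx2* at -3.21 ± 0.25, *Pax6* at -1.65 ± 0.38 and *Nes* at -1.59 ± 0.29. With the block within the day the same 3 neuroectoderm markers were lower and 3 others higher. The higher ones were *Neurog3* at 1.88 ± 0.53, *Sox1* at 1.29 ± 0.27 and *Gbx2* at 0.58 ± 0.14, with adjusted p of 0.0218, 0.00573 and 0.01265. Of 6 visceral endoderm markers none was called. Also at day 0, 0 of 11 feeder markers tested were called in the first fit, and with the block within the day 5 were higher in KO and 0 lower, with a median log2 fold change of 0.70. At day 3 the 8 mesendoderm markers had a median log2 fold change of -5.73, the 7 neuroectoderm markers of 1.04 with 3 called higher and 1 lower, and the 6 visceral endoderm markers of -1.13 with none called. With the block within the day 5 neuroectoderm markers were higher and 1 lower, and 1 visceral endoderm marker was higher. Of the feeder markers, 4 were called higher and 2 lower. The summed neuroectoderm level was 265 to 340 CPM in WT and 318 to 359 CPM in KO, and that of visceral endoderm 8.25 to 150 CPM and 14.2 to 76.4 CPM. Their part in the differences of *Hk2* at day 0 and of *Ldha*, *Pdk1*, *Pfkp* and *Slc2a1* at day 3 was not tested.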

How the data were processed

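RNA-seq of polyA RNA was analysed from 12 samples, 3 each of WT and *Meteor* KO at day 0 and day 3. Per the labels and the methods of the study, the authors used Cutadapt 1.3 for trimming, STAR 2.4.2a for alignment to GRCm38 and HTSeq 0.6.1 to count reads on Ensembl genes, and deposited the gene counts, 1 file per sample. The strand setting of the counting is not given in the sources used here. Reads of multiple alignment, 36.5% to 44.1% of the reads per sample listed by the counter, are on no gene and stayed out of the library sizes, as did its other summary lines. The labels name another RNA kit and sequencer than the methods.

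Gene names, positions and exon lengths came from an annotation of the same build, in which 46005 of 46517 identifiers were found, and promoter sequences from RefSeq. Genes with at least 1 CPM in at least 1 sample were tested (15673) with the quasi-likelihood test of edgeR 4.0.16 in R 4.3.3 with TMM scaling, over all 12 samples, with group coefficients and the replicate number as a block over both days. Adjusted p-values are over all tested genes after Benjamini and Hochberg, called below 0.05, and errors of fold changes are SE. The deviations of same-numbered samples from their group means correlated at 0.269 to 0.673 within a day (6 pairs, median 0.479) and at -0.19 to 0.072 between days. The replicate numbers of the titles therefore paired WT and KO within a day only, and the fit with a block within each day is printed beside results whose call it changes. Other alternatives were no block, another scaling, other filters, DESeq2 1.42.0, limma-voom (limma 3.58.1), only the 6 samples of a contrast, an additional fold change threshold, added counts of near-identical copies, and leaving out each sample. The steps were tested on simulated data, where the block over both days recovered no change. The block within each day recovered part of the changes, with some false calls. The simulated shifts between replicates were paired within a day, which is what the second block assumes, so its gain was built in. In the real data the block over both days called 14.3% of tested genes higher and 16.7% lower in KO at day 3. The simulation therefore does not show which block is better for these data. Shared words of 100 bases mark genes whose reads can align to a copy.

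The 10 members were named in every contrast. Genes named from 8 other lists of related genes were drawn from the called ones with the largest log2 fold change, at most 3 per list and contrast, and from the isoenzymes of members. Not every gene that met this rule is printed, so the named ones are a selection. *Gapdh*, *Pkm*, *Tpi1*, *Egln3*, *Bnip3*, *Hif1a* and *Slc16a1* were chosen after their values were seen. The members and lists were chosen with earlier results of these data known. The closest genes were those with the highest Pearson correlation of log2(CPM + 1) with the mean standardised profile of the members.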

Additional observations from a re-analysis of the deposited data

Results flagged for a closer look

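The KO effect differed between the days for 3 members when each KO sample was compared with the WT sample of its number and day, by an interaction term in edgeR over all 15673 genes. For *Pdk1* the KO effect was 0.54 greater at day 3 than at day 0 on the log2 scale, with an adjusted p of 0.00675. For *Pfkp* it was -0.82 and for *Ldha* -0.65, with adjusted p of 0.00605 and 0.0121. The pairs of *Ldha* gave -1.14, -0.72 and -0.54 at day 3, those of *Pfkp* -1.28, -0.47 and -0.98, and those of *Pdk1* 0.76, 0.58 and 0.90. With the block over both days the adjusted p of these 3 differences were 0.266, 0.634 and 0.290, for *Pdk1*, *Pfkp* and *Ldha* in that order.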

How the results depend on the processing

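Of 10 members, the number called depended mainly on the replicate block. With the replicate block within each day it was 1 in place of 0 for KO against WT at day 0, 7 in place of 1 at day 3 and 3 in place of 0 for the difference between days. With only the 6 samples of the contrast it was 1 at day 0 and 6 at day 3. At day 3 it was 2 with no replicate block, with DESeq2, with limma-voom and with no filter on low counts, and 0 with a log2 fold change above 1 required as well. For day 3 against day 0 it was 1 in place of 0 in WT with no filter, and 1 in place of 2 in KO with RLE scaling, with at least 10 counts in every sample or with a log2 fold change above 1. Without 1 sample at a time the number was 0 to 2 at day 3, 0 to 1 for the days in WT and 1 to 2 in KO. Leaving out samples in the fit with the block within each day was chosen after seeing the data, and there the number was 1 to 2 at day 0, 4 to 7 at day 3 and 3 to 4 for the difference between days. The cause was not tested. The share of all tested genes called was counted only for the fits with the block over both days and within each day. In the latter it was 22.5% higher and 24.4% lower at day 3. The counts of members under the other settings have no such share and are not a result about the members. Of the log2 fold changes of the members under settings that kept all samples, 388 kept their direction and side of the threshold, 21 came to pass it, 2 no longer passed it and 9 values past no threshold changed sign. No called value reversed. Shares by plain CPM moved by more than the spread between replicates in 27 of 32 cases, since they weight long genes more. With 3 samples per group, an exact test of 1 value cannot go below 0.1.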

Other observations

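With the block over both days, 9.56% of all tested genes were called higher and 10.9% lower in KO at day 0, and 14.3% and 16.7% at day 3, and with the block within each day 16.8% and 18% at day 0 and 22.5% and 24.4% at day 3. Of 12 genes of pyruvate entry into mitochondria, 2 were called higher and 1 lower in KO at day 0 and 0 and 0 at day 3. With the block within each day 3 were higher and 3 lower at day 0 and 2 and 2 at day 3, where *Pdk4*, another kinase of pyruvate dehydrogenase, was at 0.71 ± 0.22 and *Mpc1*, the partner of *Mpc2*, at -0.75 ± 0.27, with adjusted p of 0.0255 and 0.0436. *Mpc2*, a subunit of the mitochondrial pyruvate carrier, was 0.81 ± 0.16 and *Pdha1*, a subunit of pyruvate dehydrogenase, 0.42 ± 0.09 higher at day 0, and *Pdp1*, the phosphatase that opposes the kinase *Pdk1*, was -0.54 ± 0.15, with adjusted p of 0.00594, 0.00775 and 0.0287 (edgeR, block over both days). Of 16 TCA cycle genes, 3 were called higher and 1 lower at day 0, or 7 and 1 with the block within each day, and 4 and 1 at day 3, where *Sdhc*, a subunit of succinate dehydrogenase, was 0.55 ± 0.08, *Cs*, citrate synthase, 0.35 ± 0.06 and *Mdh2*, malate dehydrogenase, 0.34 ± 0.07 higher, with adjusted p of 0.00127, 0.0031 and 0.00475. Of 7 pentose phosphate genes 1 was called higher and 2 lower at day 0 and 1 and 0 at day 3, when *Pgd*, which oxidises phosphogluconate, was 0.33 ± 0.07 higher with an adjusted p of 0.00762. *Slc16a1*, a lactate exporter, had 393.5, 411.5 and 991 CPM in WT at day 3, and 534, 636 and 593 CPM in KO.

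In WT samples the genes at the *Meteor* locus had replicates 1, 2 and 3 at 112, 30 and 63 reads at day 0 and at 11, 53 and 32 reads at day 3 for *Platr11*, and at 107, 58 and 52 and at 29, 92 and 74 reads for *2610509F24Rik*. Replicate 1 was the highest at day 0 and the lowest at day 3, and replicate 2 the highest at day 3, as in most of the 10 members. These are unscaled reads of 2 neighbouring genes in WT only. In both genotypes these 3 orders held in 25.3%, 24.1% and 16.9% of all tested genes, and the share in WT alone was not counted. A link between the locus and the members was not tested.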
